A study of Mus musculus with 12 samples.

Results

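Complexes II to V of the mitochondrial respiratory chain were followed through the nuclear genes that encode their subunits, in hearts of mice bred to lack or to keep the glucocorticoid receptor in cardiomyocytes. The genes were chosen by symbol, as Sdha to Sdhd, Cyc1 and every symbol that starts with Uqcr, Cox4i, Cox5, Cox6, Cox7, Cox8 or Atp5. This gave 48 of the 24918 genes in the table, 4 of complex II, 9 of complex III, 18 of complex IV and 17 of complex V. Of these, 46 passed the filter on low values and were tested among 14721 genes. Cox8c, an isoform of testis, was listed at 0 in all 12 libraries, and Cox7b2 stood at 1.53 to 1.55 in each. Atp5s and Atp5sl match the symbols but are not structural subunits of complex V.

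RNA of whole hearts was sequenced in 12 libraries, in 4 groups of 3. The groups were male cardioGRKO and female cardioGRKO, whose titles read GRloxP/loxPαMHCCre/+, and male floxed and female floxed, homozygous for GRloxP. All mice were on a C57BL/6 background, 2 months old and untreated, and all carry the floxed receptor gene. Only cardioGRKO mice carry Cre, driven by the αMHC promoter in cardiomyocytes, so effects of Cre and of the deletion cannot be told apart. The groups rest on the titles, because the genotype field holds the same entry for all libraries. By its title, the study asked how deletion of the receptor alters cardiac gene expression in each sex. Values are the log2 normalized values that the authors deposited, from which sequencing depth cannot be read. Libraries of a group are not said to be separate animals, so p-values measure only the spread between libraries, which may be technical.

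The respiratory chain passes electrons from carriers loaded by fuel oxidation to oxygen, and uses the energy released to pump protons across the inner mitochondrial membrane. Complex II, succinate dehydrogenase, feeds electrons from the citric acid cycle into ubiquinone. Complex III hands them to cytochrome c, complex IV, cytochrome c oxidase, reduces oxygen, and complex V, the ATP synthase, makes ATP as protons flow back. Heart muscle draws most of its ATP from this chain, and several complex IV subunits have an isoform that is typical of heart and skeletal muscle.

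The targeted gene, Nr3c1, which encodes the receptor, followed the labels in males and went against them in females. It stood at 10.83, 10.85 and 10.88 in male cardioGRKO libraries, against 11.40, 11.42 and 11.42 in male floxed libraries, a difference of -0.56 (SE 0.024, limma adjusted p = 2.45e-11). It stood at 10.90, 10.90 and 10.85 in libraries labelled female cardioGRKO, against 10.74, 10.71 and 10.78 in those labelled female floxed, a difference of 0.14 (SE 0.024, limma adjusted p = 0.000384, and 0.0548 after the centring on highly expressed genes given with the female results). For this reason the female groups are called by their labels. Both groups labelled female also lay below the male floxed libraries in Nr3c1. Female floxed minus male floxed was -0.67 (limma adjusted p = 1.37e-12), and female cardioGRKO minus male cardioGRKO was 0.03 (limma adjusted p = 0.411). Exchanging the female labels would thus leave neither female group at the male floxed level. Markers of the heart were present, with the 12 cardiomyocyte markers making up 9.94% to 10.5% of the summed linear values of each library. The libraries labelled female floxed 1 and 2 also held transcripts of stratified epithelium (0.0784% and 0.143% of that sum, against 0.00315% to 0.00493% in the other libraries), and counts that change without them are given.

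In males, most subunit transcripts of every complex were lower in cardioGRKO than in floxed hearts. Of the 32 called lower, Cox4i1, Cox6b1 and Atp5a1 turned and Atp5b came to 0 after quantile normalization, and the other 28 stayed below 0. Of the 46 members tested, 32 were called lower and 1 higher (limma, Benjamini-Hochberg adjusted p under 0.05 over all genes tested). This is 69.6% of the members called lower, against 14.6% of all genes tested called lower and 12.8% called higher (27.4% in either direction). The median log2 difference was -0.12 over the members (-0.0679 after quantile normalization and -0.0667 after the centring on highly expressed genes described below) and -0.0021 over all genes tested. The falls were small, and Cox7a1, with the largest of them, stood at 81.5% of its floxed level. In RNA of whole hearts, fewer cells of a type and less RNA per cell cannot be told apart. The 2 groups of libraries did not overlap for 34 members lower and 1 higher, against 22.0% of all genes lower and 19.4% higher.

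In females, more members were called higher than lower in the libraries labelled cardioGRKO, but this direction turned with the scaling of the libraries. As deposited, 13 of the 46 were called higher and 3 lower (limma adjusted p under 0.05), against 15.2% of all genes tested called higher and 14.0% lower, with a median of 0.03. After quantile normalization the counts were 5 higher and 12 lower, with a median of -0.02. Each library was also centred on the median of the other genes with a mean of at least 13, an alternative chosen after the data were seen, which gave 4 higher and 19 lower and a median of -0.05. Sdha, Sdhd and Cox7a2l were called higher under both. The 2 groups of libraries did not overlap for 17 members higher and 4 lower, against 21.6% of all genes higher and 19.1% lower. In males the same 2 scalings gave 24 and 26 members lower and 2 and 3 members higher.

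**Figure D1:**
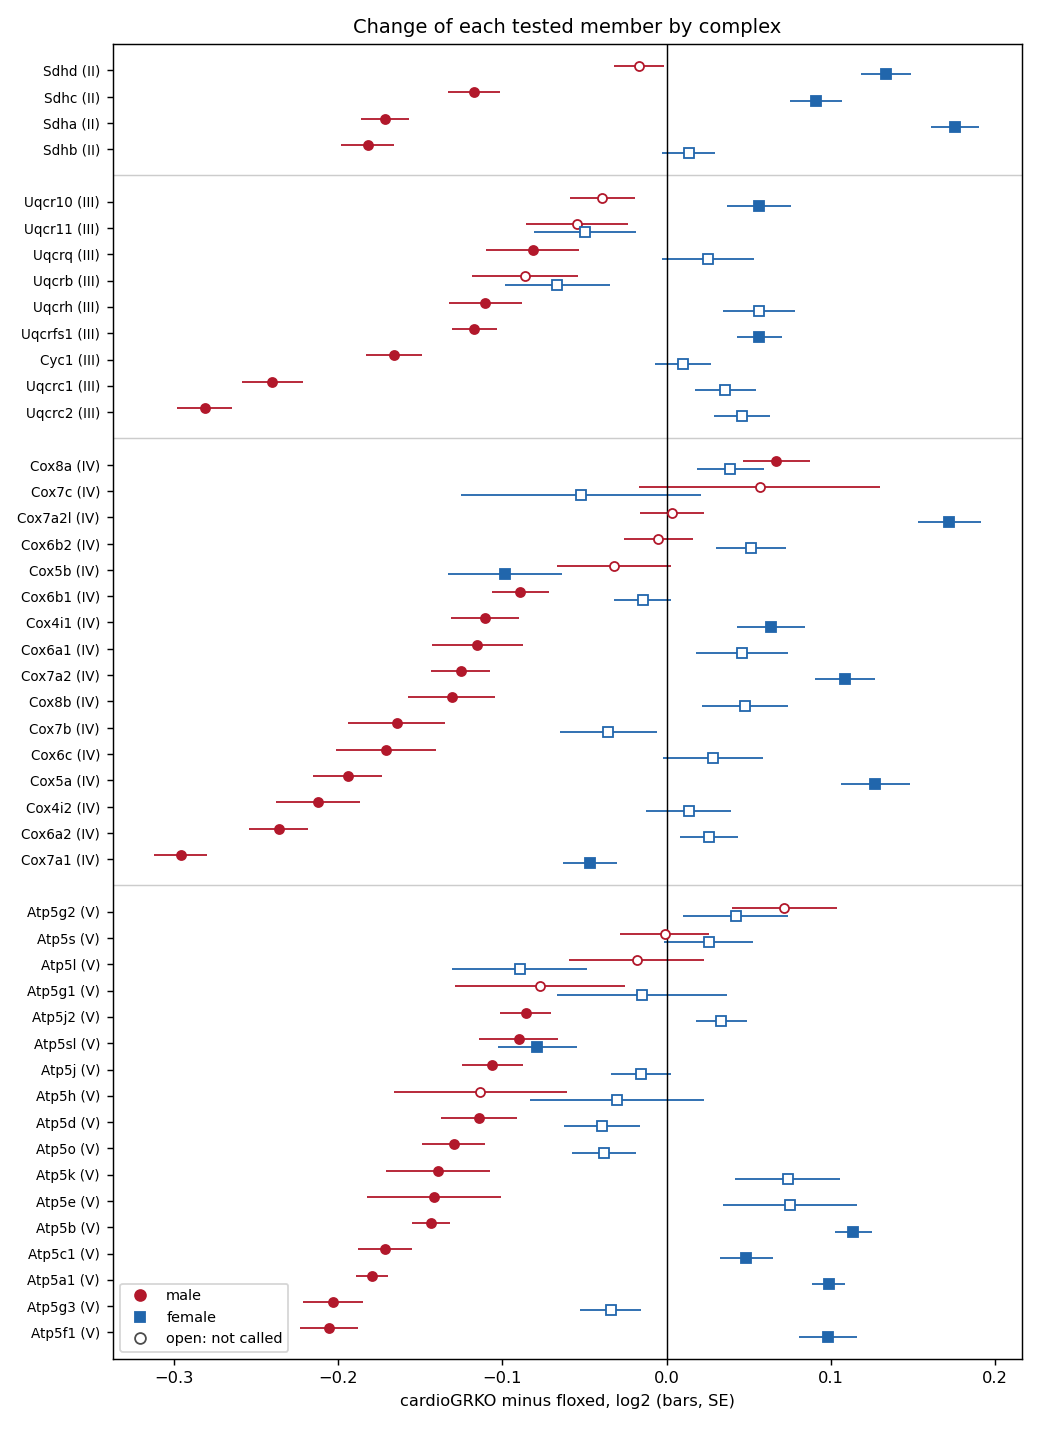
Difference between cardioGRKO and floxed libraries (log2, horizontal axis, bars of 1 SE) for each of the 46 tested members, grouped by complex, in males (red circles) and in the libraries labelled female (blue squares), with open symbols for members that limma did not call. Most red symbols lie left of 0, down to -0.30 for Cox7a1, while the blue symbols lie on both sides and their majority right of 0 turns with quantile normalization.

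**Figure D2:**
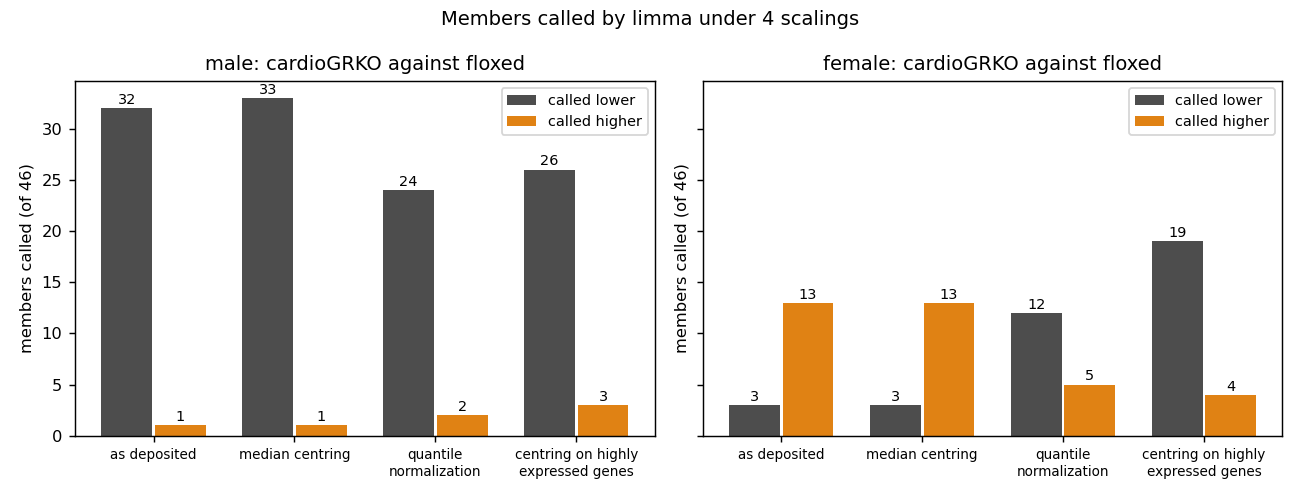
Number of the 46 tested members called lower (dark bars) and higher (orange bars) by limma in males (left) and in the libraries labelled female (right), for the values as deposited and after 3 other scalings. In males 24 to 33 members are called lower under the scalings shown, while in the right panel 13 are called higher as deposited and 19 are called lower after centring on highly expressed genes.

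Highly expressed genes as a whole moved in the same direction in males, and in females as deposited, and 32 of the 46 members are highly expressed. Of 361 other genes with a mean of at least 13 on the log2 scale, 54.6% were called lower in male cardioGRKO hearts, with a median of -0.07, against 90.6% of the 32 members at that level, with a median of -0.14. In the libraries labelled female cardioGRKO, 55.1% of the 361 genes were called higher, with a median of 0.06, against 37.5% of the 32 members, with a median of 0.05. In the test of the difference of the changes, 62.3% of the 361 genes and 90.6% of the 32 members had a lower change in males. Between the floxed groups 65.7% of the 361 genes and 68.8% of the members were called lower in those labelled female, and between the cardioGRKO groups 28.3% of these genes and 0 of the members were. Called higher in those labelled female cardioGRKO than in male cardioGRKO libraries were 65.6% of the members, against 29.4% of these genes.

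The male and the female change differed for most members. In the test of the difference itself, 32 of 46 members had a lower change in males and 0 a higher one (limma adjusted p under 0.05, and also 0 higher at an unadjusted p under 0.05), against 17.0% of all genes tested lower and 14.3% higher. The median of this difference was -0.17. After quantile normalization the counts were 19 lower and 1 higher with a median of -0.0436, and after centring on highly expressed genes 14 lower and 9 higher with a median of -0.0375. The direction of every female change rests on the female labels, which Nr3c1 goes against, and turns if these labels are exchanged. With them exchanged, an alternative added after the data were seen, 20 members had a lower change in males and 3 a higher one, against 12.4% of all genes lower and 12.2% higher, with a median of -0.0879. As deposited, 10 members were called lower in males and higher in females, which is 31.2% of those lower in males and 76.9% of those higher in females. They were Sdha, Sdhc, Uqcrfs1, Cox4i1, Cox5a, Cox7a2 and 4 subunits of the ATP synthase, Atp5a1, Atp5b, Atp5c1 and Atp5f1. Among these, only Sdha kept both calls after each of the 2 other scalings, and Atp5b kept them after centring alone. Atp5c1 was called lower under the female cardioGRKO label after quantile normalization (-0.0541, limma adjusted p = 0.00357). Another 20 members were called lower in males alone and 4 in females alone, 2 were lower in both sexes, Cox8a was higher in males and 9 were called in neither.

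By the labels, Sdha and Sdhc of complex II were called in opposite directions in the sexes as deposited, while Sdhb was called in males alone and Sdhd in females alone. With the female labels exchanged, the difference of the changes would be 0.0041 for Sdha, -0.17 for Sdhb, -0.03 for Sdhc and 0.12 for Sdhd. Of the 4 subunits of complex II, 3 were called lower in males and 3 higher under the female cardioGRKO label. Of all genes tested, 14.6% were called lower in males and 15.2% higher under the female label. The changes of all 4 subunits differed between the sexes (median difference -0.20), although Sdhd lost this call after centring on highly expressed genes (adjusted p = 0.391). Sdha is the flavoprotein that oxidizes succinate, Sdhb carries the iron-sulfur clusters, and Sdhc and Sdhd anchor the enzyme in the membrane and bind ubiquinone. Sdha stood at 15.29, 15.29 and 15.27 in male cardioGRKO libraries, against 15.44, 15.44 and 15.47 in male floxed libraries, a difference of -0.17 (SE 0.0146, limma adjusted p = 1.28e-07). It stood at 15.27, 15.26 and 15.26 in libraries labelled female cardioGRKO, against 15.10, 15.06 and 15.11 in those labelled female floxed, a difference of 0.18 (SE 0.0146, limma adjusted p = 1.63e-07). Male floxed libraries were the highest of the 4 groups and those labelled female floxed the lowest, with no overlap within either sex, and the cardioGRKO groups lay between them and overlapped each other.

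Sdhd stood at 13.94, 13.92 and 13.91 in male cardioGRKO libraries, against 13.95, 13.94 and 13.93 in male floxed libraries, a difference of -0.02 (SE 0.0152, limma adjusted p = 0.469). It stood at 13.93, 13.93 and 13.92 in libraries labelled female cardioGRKO, against 13.79, 13.78 and 13.81 in those labelled female floxed, a difference of 0.13 (SE 0.0152, limma adjusted p = 5.55e-06). Here those labelled female floxed lay below all others, and the other groups overlapped. Sdhb, at 14.80, 14.77 and 14.77 in male cardioGRKO against 14.97, 14.97 and 14.94 in male floxed libraries, fell by 0.18 (SE 0.016, limma adjusted p = 1.81e-07). Its values in the groups labelled female overlapped, at 14.86, 14.89 and 14.87 under the cardioGRKO label against 14.86, 14.84 and 14.89 under the floxed label (difference 0.01, adjusted p = 0.581 by limma, and -0.07 with adjusted p = 0.000699 after centring on highly expressed genes). Sdhc stood at 13.72, 13.74 and 13.73 in male cardioGRKO against 13.87, 13.85 and 13.83 in male floxed libraries, and at 13.78, 13.80 and 13.78 in those labelled female cardioGRKO against 13.68, 13.70 and 13.70 in those labelled female floxed. Its groups did not overlap in either sex (differences of -0.12 and 0.09, limma adjusted p = 2e-05 and 0.000347), but the female call was lost after quantile normalization (adjusted p = 0.642).

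The promoters of Sdhb and Sdhd are shown because they hold matches to motifs of factors known to drive respiratory genes, while the transcripts behaved differently. They are RefSeq sequences of build GRCm38.p6, which is not the authors' build, from 250 bases before to 50 bases after the gene's start, written 5′ to 3′ on the gene's strand. Capitals mark the matches, read on both strands. In Sdhb these are NRF1 (GCGCATGC, here in reverse) and GABP (CCGGAAG), and in Sdhd GABP in reverse and ERR (TNAAGGTCA) in reverse.
Sdhb promoter, chr4:140961021-140961320, plus strand: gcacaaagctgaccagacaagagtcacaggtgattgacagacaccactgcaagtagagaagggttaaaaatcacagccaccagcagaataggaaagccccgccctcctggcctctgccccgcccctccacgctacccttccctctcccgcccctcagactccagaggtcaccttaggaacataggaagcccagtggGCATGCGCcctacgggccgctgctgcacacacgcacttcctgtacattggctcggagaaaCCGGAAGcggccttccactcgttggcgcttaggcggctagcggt
Sdhd promoter, chr9:50603800-50604099, minus strand: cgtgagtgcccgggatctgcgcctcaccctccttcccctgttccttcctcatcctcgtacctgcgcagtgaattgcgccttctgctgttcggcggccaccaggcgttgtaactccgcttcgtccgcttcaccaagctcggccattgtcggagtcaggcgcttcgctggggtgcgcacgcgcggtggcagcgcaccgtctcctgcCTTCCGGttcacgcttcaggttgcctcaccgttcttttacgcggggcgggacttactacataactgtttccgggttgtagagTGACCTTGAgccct
A match describes the letters only. Of the 48 members, 37 were found in the promoter table by Entrez identifier. NRF1 matched 7 of the 37 (18.9%, against 3.05% of 27025 genes with a promoter of that length), GABP 12 (32.4% against 9.93%), the YY1 motif AAGATGGC 4 (10.8% against 3.19%) and ERR 2 (5.41% against 1.43%). The CRE motif TGACGTCA matched 1, and the palindromic glucocorticoid response element matched 0, against 0.537% of all. Promoters of the members were also richer in G and C, at a median of 56.3% against 52.8%. In males the median change was -0.1153 over the 7 tested members with an NRF1 match and -0.1135 over the 29 without one. For GABP it was -0.1084 over the 12 with a match and -0.1212 over the 24 without. For YY1 it was -0.0982 over 4 and -0.1148 over 32, and for ERR -0.11 over 2 and -0.114 over 34.

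In complex III, 6 of 9 subunits were called lower in male cardioGRKO hearts and 0 higher, with a median of -0.11. Of all genes tested, 14.6% were called lower and 12.8% higher. Under the female cardioGRKO label 2 of the 9 were called higher and 0 lower, against 15.2% and 14.0% of all genes tested. In males the core proteins led. Uqcrc2 stood at 14.87, 14.88 and 14.85 in male cardioGRKO libraries, against 15.14, 15.14 and 15.16 in male floxed libraries, a difference of -0.28 (SE 0.0168, limma adjusted p = 1.6e-09). Uqcrc1, the other core protein, stood at 15.43, 15.39 and 15.41 in male cardioGRKO against 15.68, 15.66 and 15.62 in male floxed libraries, a difference of -0.24 (SE 0.0183, limma adjusted p = 3.38e-08). Neither pair of groups overlapped. In the groups labelled female, Uqcrc2 stood at 14.90, 14.91 and 14.91 under the cardioGRKO label, against 14.85, 14.83 and 14.90 under the floxed label (0.05, limma adjusted p = 0.0503), and Uqcrc1 at 15.48, 15.44 and 15.44 against 15.40, 15.42 and 15.44 (0.04, limma adjusted p = 0.16). Without the library labelled female floxed 3 both were called higher (adjusted p = 0.00164 and 0.0471). Both of these turned after centring on highly expressed genes, to -0.04 and -0.05. The male and female changes differed by -0.33 for Uqcrc2 and -0.28 for Uqcrc1 (limma adjusted p = 1.68e-08 and 3.65e-07).

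The promoter of Uqcrc1 is shown because it holds 2 overlapping NRF1 matches, one on each strand, just after the start.
Uqcrc1 promoter, chr9:108936398-108936697, plus strand: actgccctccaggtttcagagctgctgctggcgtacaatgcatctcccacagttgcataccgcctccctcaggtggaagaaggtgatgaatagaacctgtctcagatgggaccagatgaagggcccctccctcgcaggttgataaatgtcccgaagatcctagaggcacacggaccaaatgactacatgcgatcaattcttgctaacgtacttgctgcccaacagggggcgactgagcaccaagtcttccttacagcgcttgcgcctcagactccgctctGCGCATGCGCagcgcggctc

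Cyc1, the cytochrome c1 that donates electrons to cytochrome c, stood at 14.93, 14.91 and 14.90 in male cardioGRKO libraries, against 15.08, 15.07 and 15.08 in male floxed libraries, a difference of -0.17 (SE 0.017, limma adjusted p = 1.1e-06). In the groups labelled female it overlapped, at 15.00, 14.96 and 14.94 under the cardioGRKO label, against 14.93, 14.98 and 14.96 under the floxed label (0.01, limma adjusted p = 0.72, but -0.08 with adjusted p = 0.000339 after quantile normalization). Uqcrfs1, the Rieske iron-sulfur protein, was the catalytic subunit with opposite calls. It stood at 14.82, 14.81 and 14.81 in male cardioGRKO against 14.94, 14.93 and 14.93 in male floxed libraries (-0.12, limma adjusted p = 5.47e-06). Under the female labels it stood at 14.86, 14.83 and 14.82 in cardioGRKO against 14.77, 14.79 and 14.79 in floxed libraries (0.06, limma adjusted p = 0.00569), with no overlap, although this turned to -0.02 after centring on highly expressed genes and its call was lost without the libraries labelled female floxed 1 and 2 (adjusted p = 0.107). Among the small subunits, Uqcr10, at 13.35, 13.30 and 13.33 under the female cardioGRKO label against 13.27, 13.30 and 13.24 under the floxed label, was called higher (0.06, limma adjusted p = 0.0407), lost that call when any of 6 single libraries was left out and turned to -0.02 after centring on highly expressed genes. In males it stood at 13.24, 13.26 and 13.30 against 13.30, 13.31 and 13.30 (-0.04, limma adjusted p = 0.161). Uqcr11 and Uqcrb were called in neither sex.

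In complex IV, 11 of 16 tested subunits were called lower and 1 higher in male cardioGRKO hearts, with a median of -0.12. The shares over all genes tested were 14.6% lower and 12.8% higher. Under the female cardioGRKO label 4 of the 16 were called higher and 2 lower, against 15.2% and 14.0% of all genes tested. All 3 muscle isoforms, Cox7a1, Cox6a2 and Cox8b, were among those called lower in males. Cox7a1, the muscle isoform of subunit VIIa, stood at 14.37, 14.41 and 14.36 in male cardioGRKO libraries, against 14.68, 14.70 and 14.65 in male floxed libraries, a difference of -0.30 (SE 0.0162, limma adjusted p = 5.91e-10). It stood at 14.51, 14.51 and 14.52 in libraries labelled female cardioGRKO, against 14.55, 14.57 and 14.56 in those labelled female floxed, a difference of -0.05 (SE 0.0162, limma adjusted p = 0.0404). The groups did not overlap in either sex, and the fall was larger in males by 0.25 (limma adjusted p = 2.92e-07). The female call was lost when any of 8 single libraries was left out (adjusted p up to 0.1) and strengthened to -0.13 after centring on highly expressed genes.

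Cox7a2, the isoform of the same subunit found in most tissues, was lower in males and higher under the female cardioGRKO label. It stood at 13.52, 13.54 and 13.52 in male cardioGRKO libraries, against 13.63, 13.66 and 13.67 in male floxed libraries (-0.13, SE 0.018, limma adjusted p = 4.58e-05). In the libraries labelled female cardioGRKO it stood at 13.66, 13.67 and 13.72, against 13.58, 13.58 and 13.57 in those labelled female floxed (0.11, SE 0.018, limma adjusted p = 0.000258, with adjusted p = 0.099 after quantile normalization). No groups overlapped within a sex. The log2 ratio of Cox7a1 to Cox7a2 was thus lower by 0.17 in male cardioGRKO libraries (0.85, 0.87 and 0.84, against 1.04, 1.04 and 0.99 in male floxed libraries). Under the female labels it was lower by 0.16 (0.85, 0.84 and 0.80 in cardioGRKO, against 0.97, 0.99 and 0.99 in floxed libraries). This ratio within a library is not divided by transcript length and serves only to compare groups. Centring cannot change it, while after quantile normalization it was lower by 0.0779 in males and 0.0918 under the female labels, still with no overlap.

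Among the other isoform pairs, the ratio moved in males. Cox6a2 over Cox6a1, the muscle and general isoforms of subunit VIa, was lower by 0.12 in male cardioGRKO libraries (3.981, 3.996 and 3.966, against 4.107, 4.136 and 4.063 in male floxed libraries). Cox8b over Cox8a was lower by 0.20 (1.74, 1.73 and 1.71 against 1.89, 1.92 and 1.96). Cox4i2 over Cox4i1, of which Cox4i2 is the isoform induced by low oxygen and typical of lung, was lower by 0.10 (-7.01, -7.03 and -7.01 against -6.87, -6.95 and -6.93), and by 0.24 after quantile normalization. Under the female labels the groups overlapped for these 3 pairs, with differences of -0.02, 0.01 and -0.05 in the same order. Exact two-sided permutation tests of the 8 ratios gave p = 0.1, the smallest possible with 3 against 3 libraries, for the 4 male ratios and for Cox7a1 over Cox7a2 under the female labels, with 0.16 after adjustment over the 8 tests. The same exact permutation tests gave p = 0.5, 0.8 and 0.2 for the other 3 female ratios.

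**Figure D3:**
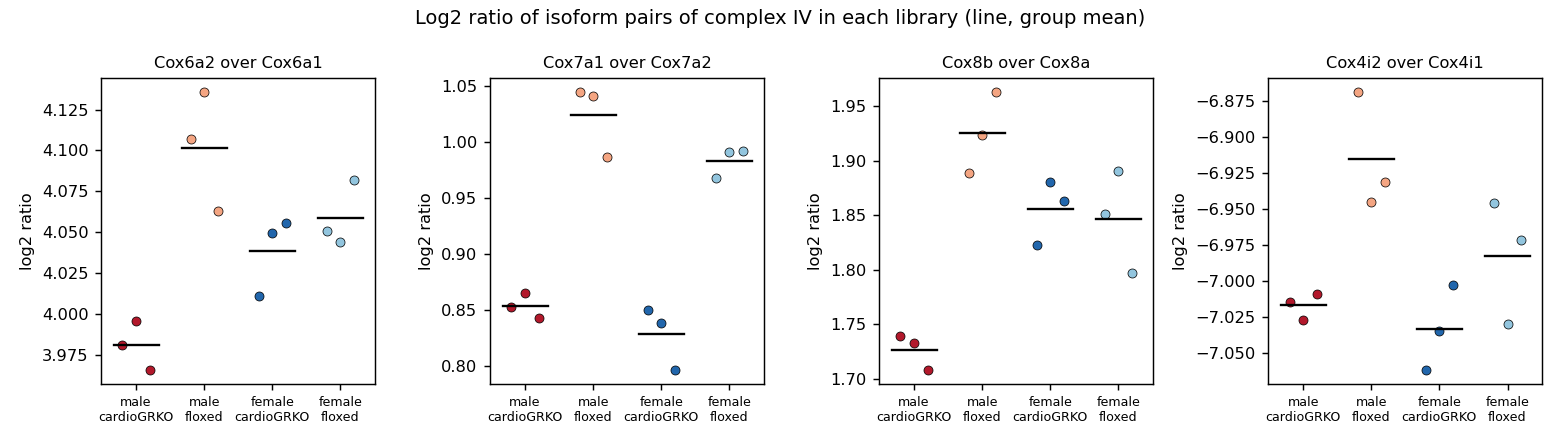
Log2 ratio of the muscle or induced isoform to the general isoform of 4 complex IV subunits (vertical axes, scales differ) in each of the 12 libraries (points) with group means (lines), for male and labelled female cardioGRKO and floxed groups. The 3 male cardioGRKO points lie below the 3 male floxed points in every panel, and the groups labelled female separate only for Cox7a1 over Cox7a2, at 0.80 to 0.85 against 0.97 to 0.99.

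The promoters of Cox6a1 and Cox7a1 are shown as a general and a muscle isoform, with capitals for matches as above. Cox6a1 holds 2 overlapping NRF1 matches and a GABP match in reverse, and Cox7a1 holds none of the 6 motifs searched.
Cox6a1 promoter, chr5:115348909-115349208, minus strand: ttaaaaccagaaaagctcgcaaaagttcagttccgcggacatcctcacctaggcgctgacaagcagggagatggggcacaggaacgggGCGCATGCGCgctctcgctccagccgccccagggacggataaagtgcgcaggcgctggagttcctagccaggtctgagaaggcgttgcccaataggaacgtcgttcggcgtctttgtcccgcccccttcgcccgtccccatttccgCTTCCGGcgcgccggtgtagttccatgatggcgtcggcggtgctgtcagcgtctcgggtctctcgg
Cox7a1 promoter, chr7:30183921-30184220, plus strand: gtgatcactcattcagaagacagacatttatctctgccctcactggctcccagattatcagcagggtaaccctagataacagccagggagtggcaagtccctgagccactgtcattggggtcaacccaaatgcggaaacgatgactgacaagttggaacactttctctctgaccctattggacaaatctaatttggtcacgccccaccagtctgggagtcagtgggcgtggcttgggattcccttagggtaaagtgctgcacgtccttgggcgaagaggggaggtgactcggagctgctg

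The isoform genes moved singly as follows. Cox6a2 stood at 15.40, 15.39 and 15.39 in male cardioGRKO against 15.61, 15.66 and 15.62 in male floxed libraries (-0.24, SE 0.0177, limma adjusted p = 2.73e-08). Under the female labels it stood at 15.56, 15.53 and 15.54 in cardioGRKO against 15.52, 15.56 and 15.48 in floxed libraries (0.03, limma adjusted p = 0.304, and -0.06 with adjusted p = 0.0264 after centring on highly expressed genes). The male groups lay apart and the groups labelled female overlapped. The female value of Cox6a2 was called higher without the library labelled female floxed 2 (0.046, adjusted p = 0.0423) and without female floxed 1 and 2 (0.0626, adjusted p = 0.0163). Cox6a1 stood at 11.42, 11.40 and 11.43 in male cardioGRKO against 11.50, 11.52 and 11.56 in male floxed libraries (-0.12, limma adjusted p = 0.00476), and at 11.55, 11.48 and 11.49 against 11.46, 11.52 and 11.40 under the female labels (0.05, limma adjusted p = 0.24, and 0.11 with adjusted p = 0.0282 without female floxed 1 and 2). After centring on highly expressed genes its male call was lost (adjusted p = 0.1) and its female value turned to -0.04 (limma adjusted p = 0.334). Its difference of the changes also lost its call (limma adjusted p = 0.54).

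Cox8b, the muscle isoform of subunit VIII in the mouse, stood at 13.80, 13.83 and 13.78 in male cardioGRKO against 13.90, 13.95 and 13.95 in male floxed libraries (-0.13, limma adjusted p = 0.00115), and at 13.92, 13.94 and 13.92 against 13.90, 13.94 and 13.80 under the female labels (0.05, limma adjusted p = 0.194). Without the library labelled female floxed 2 this was 0.0772 (adjusted p = 0.0257), and without female floxed 1 and 2 it was 0.12 (adjusted p = 0.000371). After centring on highly expressed genes the female value of Cox8b turned to -0.03 (limma adjusted p = 0.313). The difference of the changes of Cox8b lost its call after this centring (limma adjusted p = 0.29). Cox8a, its general isoform, was the one member called higher in males, at 12.06, 12.10 and 12.07 in cardioGRKO against 12.01, 12.03 and 11.99 in floxed libraries (0.07, SE 0.0204, limma adjusted p = 0.0212). Under the female labels it stood at 12.10, 12.06 and 12.06 against 12.04, 12.05 and 12.01 (0.04, limma adjusted p = 0.172). The groups did not overlap in either sex, but the male call was lost without male cardioGRKO 2, male cardioGRKO 3 or male floxed 3 (adjusted p = 0.0948, 0.0523 and 0.0868).

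Cox4i1, the general isoform of the largest nuclear subunit, stood at 15.50, 15.50 and 15.47 in male cardioGRKO against 15.59, 15.62 and 15.58 in male floxed libraries, a difference of -0.11 (limma adjusted p = 0.000616) that turned to 0.02 (adjusted p = 0.313) after quantile normalization. Under the female labels it stood at 15.63, 15.61 and 15.58 in cardioGRKO against 15.51, 15.60 and 15.51 in floxed libraries, and the groups overlapped (0.06, limma adjusted p = 0.0292, turned to -0.02 after centring on highly expressed genes). The female call was also lost when any of 4 single libraries was left out. Cox4i2 stood at 8.48, 8.47 and 8.46 in male cardioGRKO against 8.72, 8.68 and 8.65 in male floxed libraries (-0.21, limma adjusted p = 6.84e-06), and at 8.57, 8.58 and 8.57 against 8.57, 8.57 and 8.54 under the female labels (0.01, limma adjusted p = 0.749, and -0.07 after centring on highly expressed genes).

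Of the remaining complex IV genes, Cox5a, Cox7a2l and Cox5b stood out. Cox5a, a subunit on the matrix side, stood at 14.57, 14.58 and 14.53 in male cardioGRKO against 14.76, 14.74 and 14.77 in male floxed libraries (-0.19, SE 0.021, limma adjusted p = 2.01e-06). In females, by label, it stood at 14.69, 14.73 and 14.70 in cardioGRKO against 14.53, 14.62 and 14.59 in floxed libraries (0.13, SE 0.021, limma adjusted p = 0.000255, with adjusted p = 0.0594 after quantile normalization). The changes lay in opposite directions with no overlap within either sex, and differed by -0.32 (limma adjusted p = 3.02e-07). Cox7a2l did not follow in males, at 12.46, 12.48 and 12.46 in cardioGRKO against 12.48, 12.48 and 12.44 in floxed libraries (0.0032, limma adjusted p = 0.935). By the female labels it stood at 12.48, 12.48 and 12.50 in cardioGRKO against 12.32, 12.28 and 12.33 in floxed libraries (0.17, SE 0.0193, limma adjusted p = 4.76e-06). Again those labelled female floxed lay below all others. After centring on highly expressed genes Cox7a2l was called higher in males (0.0527, limma adjusted p = 0.0301). Its difference of the changes then lost its call (-0.0386, limma adjusted p = 0.192).

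Cox5b, a zinc-binding subunit on the matrix side, was called lower only under the female labels, at 11.98, 12.02 and 11.92 in cardioGRKO against 12.02, 12.07 and 12.12 in floxed libraries (-0.10, SE 0.0347, limma adjusted p = 0.0431). In males it stood at 11.96, 11.97 and 11.97 against 12.09, 11.97 and 11.94 (-0.03, limma adjusted p = 0.561), the changes did not pass the test of their difference (adjusted p = 0.334, but 0.00203 after centring on highly expressed genes), and the female call was lost when any of 7 single libraries was left out.

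**Figure D4:**
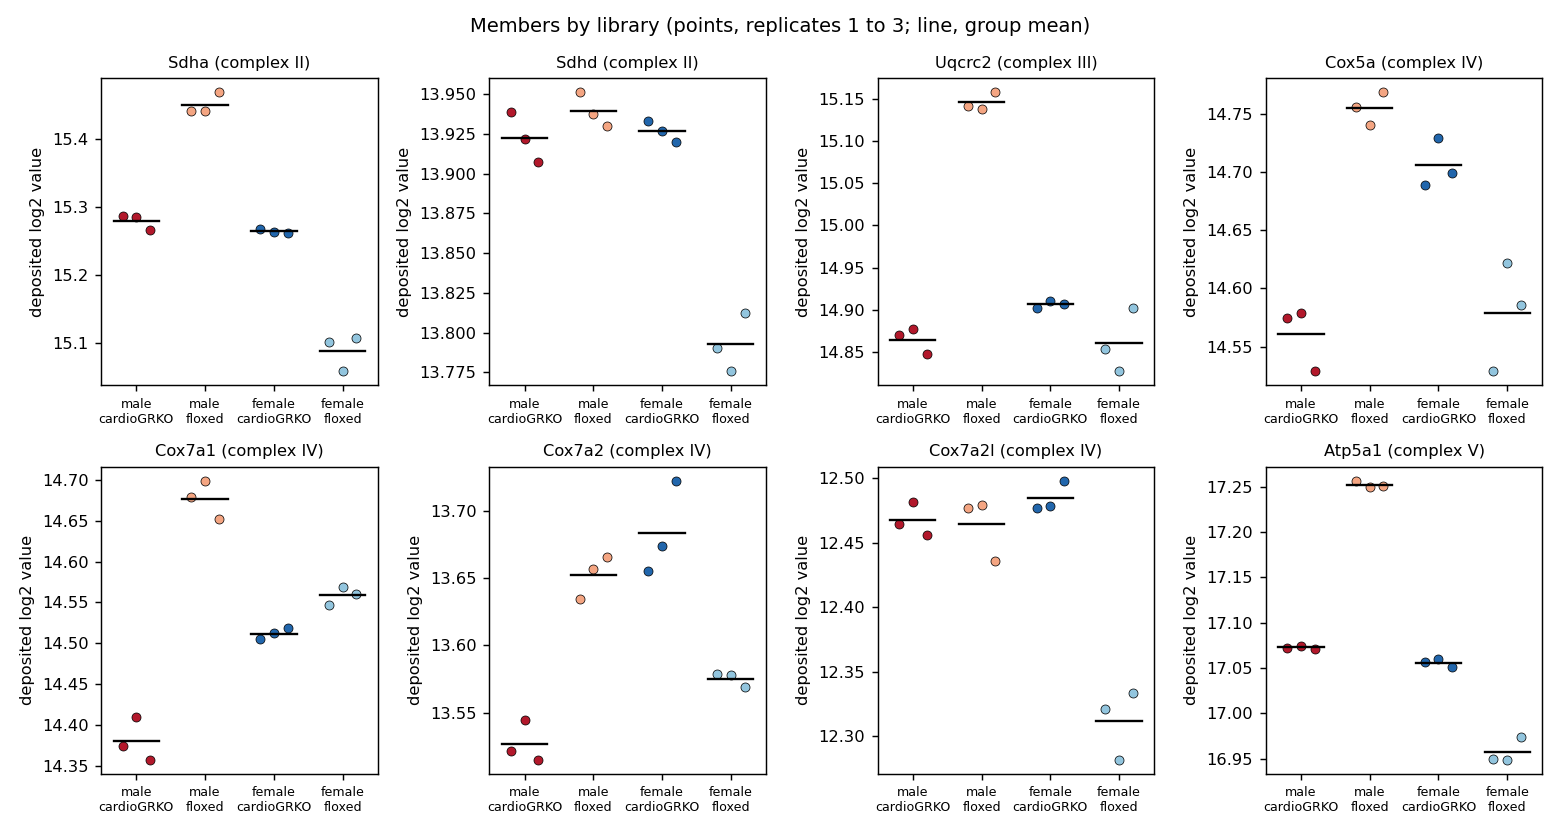
Deposited log2 value (vertical axes, scales differ) of 8 members by library (each point is 1 of 12, lines are group means), for male and labelled female cardioGRKO and floxed groups. Male floxed libraries are highest for Sdha, Uqcrc2, Cox5a, Cox7a1 and Atp5a1, libraries labelled female floxed are lowest for Sdhd and Cox7a2l, and male cardioGRKO libraries are lowest for Cox7a1 and Cox7a2.

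In complex V, 12 of 17 genes were called lower in male cardioGRKO hearts and 0 higher, with a median of -0.11. The shares over all genes tested were 14.6% lower and 12.8% higher. All 5 subunits of the F1 sector (Atp5a1, Atp5b, Atp5c1, Atp5d and Atp5e) were among these 12 as deposited. Of the 5, 3 were called higher under the female cardioGRKO label. Of 10 genes of the membrane sector and peripheral stalk, 6 were called lower in males and 1 higher under the female cardioGRKO label. Over all 17 genes, 4 were called higher and 1 lower under that label, against 15.2% and 14.0% of all genes tested. After quantile normalization Atp5c1 and Atp5d kept their male calls, Atp5a1 was called higher in males, and Atp5b and Atp5e were not called. Under the female cardioGRKO label Atp5a1, Atp5c1 and Atp5d were then called lower, and Atp5b and Atp5e were not called. Atp5b, the catalytic beta subunit, stood at 17.52, 17.51 and 17.51 in male cardioGRKO libraries, against 17.66, 17.66 and 17.65 in male floxed libraries (-0.14, SE 0.0114, limma adjusted p = 5.7e-08). Among libraries labelled female it stood at 17.52, 17.51 and 17.49 in cardioGRKO against 17.38, 17.38 and 17.41 in floxed libraries (0.11, SE 0.0114, limma adjusted p = 1.38e-06). Atp5a1, the alpha subunit, stood at 17.07, 17.07 and 17.07 in male cardioGRKO against 17.26, 17.25 and 17.25 in male floxed libraries, a difference of -0.18 (SE 0.00997, limma adjusted p = 6.77e-10) that turned to 0.05 after quantile normalization. In the labelled females it stood at 17.06, 17.06 and 17.05 in cardioGRKO against 16.95, 16.95 and 16.97 in floxed libraries, a difference of 0.10 (SE 0.00997, limma adjusted p = 1.47e-06) that turned to -0.08. Groups of neither gene overlapped within a sex, but quantile normalization, which assigns values by rank, set the changes of Atp5b to 0 in both sexes.

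Atp5f1, subunit b of the peripheral stalk, had the largest male change of this complex. It stood at 14.33, 14.38 and 14.34 in male cardioGRKO against 14.55, 14.54 and 14.57 in male floxed libraries (-0.21, SE 0.0176, limma adjusted p = 1.37e-07). For females as labelled, it stood at 14.39, 14.41 and 14.41 in cardioGRKO against 14.29, 14.34 and 14.28 in floxed libraries (0.10, SE 0.0176, limma adjusted p = 0.000515, with adjusted p = 0.439 after quantile normalization). Neither pair overlapped. Of its transcript, 38.7% of the 50-base stretches also occur in other annotated genes, so its counting is uncertain.

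Atp5g1, Atp5g2 and Atp5g3 encode one and the same mature subunit c of the rotor ring, and Atp5g3 alone was called as deposited. Atp5g3 stood at 15.65, 15.66 and 15.62 in male cardioGRKO against 15.83, 15.85 and 15.87 in male floxed libraries (-0.20, SE 0.0185, limma adjusted p = 2.8e-07), and at 15.72, 15.70 and 15.70 against 15.75, 15.78 and 15.70 under the female labels (-0.03, limma adjusted p = 0.184, and -0.12 with adjusted p = 0.000271 after centring on highly expressed genes). Atp5g1 stood at 13.32, 13.33 and 13.15 in male cardioGRKO against 13.37, 13.35 and 13.31 in male floxed libraries, and at 13.51, 13.29 and 13.31 against 13.37, 13.46 and 13.33 under the female labels. Atp5g2 stood at 6.141, 6.208 and 6.289 in male cardioGRKO against 6.111, 6.114 and 6.199 in male floxed libraries, and at 6.18, 6.18 and 6.16 against 6.11, 6.13 and 6.14 under the female labels. Their changes were -0.08 and 0.07 in males and -0.02 and 0.04 under the female labels, with limma adjusted p between 0.114 and 0.862. The male change of Atp5g2 was called higher with robust moderation (adjusted p = 0.049), with a replicate block (0.0399), after centring on highly expressed genes (0.00982), without male cardioGRKO 1 (0.0187) and without male floxed 3 (0.038). That of Atp5g1 was called lower in the fit within male libraries (adjusted p = 0.0336).

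Atp5sl, an assembly factor of complex I despite its symbol, was lower in both sexes. It stood at 10.80, 10.80 and 10.75 in male cardioGRKO against 10.84, 10.85 and 10.91 in male floxed libraries (-0.09, limma adjusted p = 0.00939), and at 10.80, 10.84 and 10.83 against 10.89, 10.90 and 10.91 under the female labels (-0.08, limma adjusted p = 0.0212). Its groups did not overlap, its male call was lost without male cardioGRKO 3 or male floxed 3 (adjusted p = 0.0584 and 0.056), and after either scaling (adjusted p = 0.0556 with quantile normalization and 0.164 with centring on highly expressed genes). The female call was lost without the library labelled female cardioGRKO 1 (adjusted p = 0.0786), without female floxed 3 (0.0612) and without female floxed 1 and 2 (0.0864).

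The 9 members called in neither sex were Uqcr11, Uqcrb, Cox6b2, Cox7c, Atp5g1, Atp5g2, Atp5h, Atp5l and Atp5s. For some of them reads could be split with near-identical sequence in other genes. Among these 9, the share of 50-base stretches of the transcript that also occur in other annotated genes was 84.8% for Atp5l and 47.9% for Atp5h. It was 43.4% for Uqcrb, 27.9% for Cox7c, 14.8% for Atp5g2, 11.6% for Atp5g1, 10.9% for Uqcr11 and 0 for Cox6b2 and Atp5s. Members that were called also had such shares, with 50.3% for Atp5o, 32.0% for Cox5a, 25.9% for Cox5b and 24.8% for Uqcrc2. Of the 44 members with a share under 50%, 31 were called lower in males.

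The male groups stood at the ends of the order of levels as deposited. Male floxed libraries had the highest of the 4 group means for 31 of the 46 members (67.4%, against 28.6% of all genes tested). Male cardioGRKO libraries had the lowest mean for 30 (65.2%, against 22.8% of all genes), and those labelled female floxed for 12 (26.1%, against 29.1%). Between the cardioGRKO groups, 24 members were called higher in those labelled female than in male libraries and 1, Cox7c, lower (limma adjusted p under 0.05), against 11.9% of all genes higher and 12.4% lower, with a median of 0.06. The libraries did not overlap for 29 members higher and 3 lower, against 20.3% of all genes higher and 19.8% lower. The called counts were 24 and 2 after quantile normalization and 17 and 2 after centring on highly expressed genes, and 15 members were called higher without male cardioGRKO 3. Between the floxed groups, 25 members were called lower in those labelled female than in male libraries and 0 higher (limma adjusted p under 0.05, and 1 higher at an unadjusted p under 0.05), against 22.7% of all genes lower and 21.5% higher. The libraries did not overlap for 25 members lower and 1 higher, against 26.1% of all genes lower and 24.7% higher. The median was -0.07, and this direction turned after quantile normalization (9 lower and 13 higher) and after centring on highly expressed genes (9 lower and 21 higher). The genotype and sex contrasts share these groups.

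**Figure D5:**
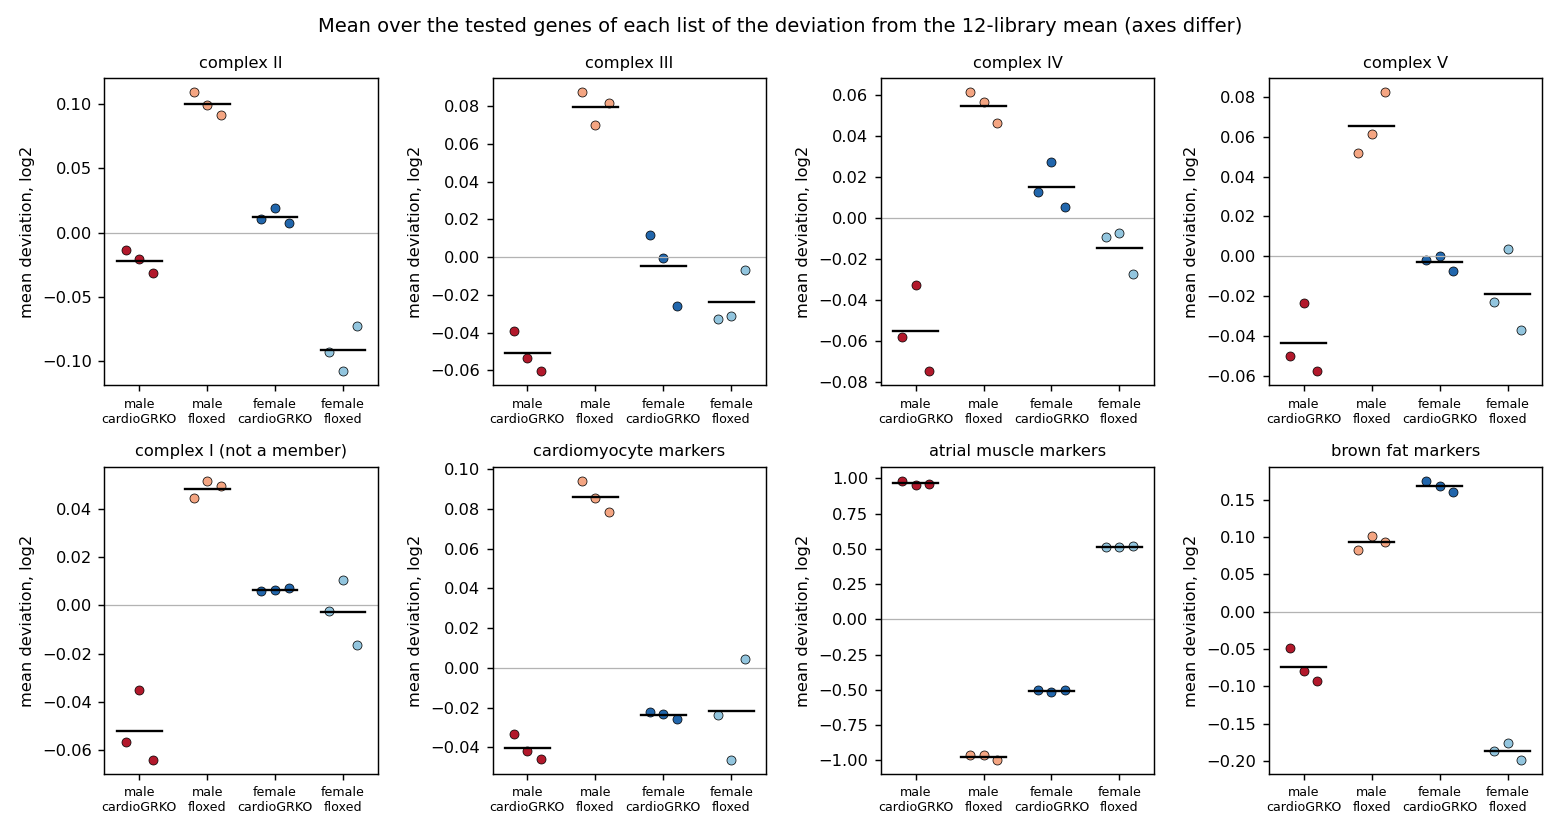
Mean deviation of the tested genes of each list from their 12-library mean (log2, vertical axes, scales differ) in each library (points) with group means (lines), for the 4 complexes (upper row) and for complex I, cardiomyocyte, atrial muscle and brown fat markers (lower row). As deposited, every complex is lower in male cardioGRKO than in male floxed libraries and atrial markers are higher, while under the female labels atrial markers are lower in cardioGRKO libraries and complex II is higher.

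Markers of other cell types also differed between the groups, some with the members and some against them. Beside the marker counts, 14.6% of all genes tested were called lower and 12.8% higher in males. Under the female cardioGRKO label the shares were 15.2% higher and 14.0% lower. The 6 atrial muscle markers were all called higher in male cardioGRKO hearts and all lower under the female cardioGRKO label (median 1.68 and -1.03), the reverse of the members as deposited. They made up 0.541% to 0.543% of the summed linear values in male cardioGRKO libraries, against 0.112% to 0.114% in male floxed libraries. They made up 0.202% to 0.205% in libraries labelled female cardioGRKO, against 0.429% to 0.446% in those labelled female floxed. Of 6 brown fat markers 4 were called lower in males, and 4 higher and 1 lower under the female label, with Ucp1, which uncouples respiration to give heat, at -0.48 and 1.66. The 1 lower under the female label was Ppargc1a, which is also counted among the regulators of mitochondrial genes below. Of 12 cardiomyocyte markers 9 were called lower and 1 higher in males, and 4 higher and 2 lower under the female label, and of 7 endothelial markers 6 were called lower and 1 higher in males, and 4 higher and 1 lower under the female label. Of 6 smooth muscle and pericyte markers 5 were called lower and 1 higher in males, and 3 lower and 1 higher under the female label. Of 6 fibroblast markers 5 were called higher in males, and 4 lower and 1 higher under the female label. Of 7 skeletal muscle markers 4 were called higher and 1 lower in males and 5 higher under the female label, and of 5 white fat markers 2 were called higher and 2 lower in males and 4 higher under the female label. Of 5 macrophage markers 0 were called in males, and 3 higher and 1 lower under the female label. The part of these cell types in the members' changes was not tested. In all, the members made up 4.29% to 4.33% of the summed values in male cardioGRKO libraries, against 4.66% to 4.67% in male floxed libraries. They made up 4.44% to 4.48% in those labelled female cardioGRKO, against 4.35% to 4.40% in those labelled female floxed.

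Genes that serve these complexes were compared with them. Beside their counts, 14.6% of all genes tested were called lower and 12.8% higher in males. Under the female cardioGRKO label the shares were 15.2% higher and 14.0% lower. Of 13 genes for electron carriers, 11 were called lower in males and 0 higher, and under the female cardioGRKO label 9 were called higher and 1 lower. Of these genes 9 make ubiquinone rather than carry electrons themselves (Coq2 to Coq7, Coq9, Pdss1 and Pdss2). Etfa and Etfdh, which pass electrons from fatty acid oxidation to ubiquinone, changed by -0.33 and -0.32 in males and by 0.11 and 0.20 under the female labels (limma adjusted p at most 0.000222). Cycs, cytochrome c itself, was not called in males (-0.05, limma adjusted p = 0.189). Of 35 nuclear subunits of complex I, 22 were called lower in males and 0 higher, and under the female cardioGRKO label 4 were called higher and 1 lower. Of the 361 other genes with a mean of at least 13, 54.6% were called lower in males and 55.1% higher under the female label. These lists, those that follow and the marker lists were counted as deposited only, not after the 2 other scalings.

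Assembly factors of complexes IV and V were called in both directions in males, and only higher under the female cardioGRKO label. Of all genes tested, 14.6% were called lower and 12.8% higher in males. Under the female cardioGRKO label 15.2% were called higher and 14.0% lower. Of 22 for complex IV, 6 were called lower and 1 higher in males, and 8 higher and 0 lower under the female cardioGRKO label. Under that label 2 factors for complex V were called higher and 0 lower. For complex III 1 was called higher and 1 lower, and for complex II 0 were called. Cox19, a copper-handling factor of complex IV assembly, rose by 0.32 in males (limma adjusted p = 1.05e-07), and Cox10, which makes the heme of complex IV, fell by 0.16 (limma adjusted p = 9.78e-05). Of 5 factors for complex V, Atpif1, the inhibitor of ATP hydrolysis by the synthase, rose by 0.22 in males (limma adjusted p = 2.1e-06) and Tmem70 fell by 0.11 (limma adjusted p = 0.00104). Of 4 factors for complex II, Sdhaf1 rose by 0.14 in males (limma adjusted p = 0.00465), and of 5 for complex III, Bcs1l and Uqcc2 fell by 0.09 and 0.10 (limma adjusted p = 0.0127 and 0.00246).

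Of 16 regulators of mitochondrial genes, 6 were called lower and 1 higher in males, and under the female cardioGRKO label 5 were called higher and 1 lower. Of all genes tested, 14.6% were called lower and 12.8% higher in males, and 15.2% higher and 14.0% lower under the female label. Perm1, a muscle regulator that acts with PGC-1 and ERR proteins, changed by -0.34 in males and 0.16 under the female labels (limma adjusted p = 2.34e-09 and 3.23e-05). Esrrb, the nuclear receptor ERR beta, changed by -0.23 and 0.25 (limma adjusted p = 9.61e-05 and 6.42e-05). Ppargc1a, which encodes the coactivator PGC-1 alpha, was lower in both, at -0.08 and -0.19 (limma adjusted p = 0.00987 and 5.43e-06). Nrf1 and Gabpa, whose motifs are marked in the promoters above, were called in neither sex.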

How the data were processed

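RNA of whole mouse hearts was measured by sequencing in 12 libraries, 3 in each of 4 groups. The submitters' processing notes name Trim Galore, TopHat2, HTSeq, DESeq2 and the build mm9. The authors deposited 1 table of log2 normalized values, from the values themselves. The headers do not say which kind of log2 transformation was used, and values reach -2.2. Sequencing depth cannot be read from it, so no count test was run, and no interval for counting error is given.

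The 24918 genes were filtered to the 14721 with a value of at least the log2 of 10 in at least 3 libraries. limma 3.58.1 in R 4.3.3 was fitted with 4 group means and a mean-variance trend (8 residual degrees of freedom), with Benjamini-Hochberg adjustment over all genes tested and a threshold of 0.05. The scripts were tested on simulated data. Isoform ratios were compared by exact permutation. Promoters, read with Python 3.11.15, are RefSeq sequences of GRCm38.p6, and transcripts for shared stretches of 50 bases are GENCODE M21.

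The members and gene lists were chosen with earlier results of these data known. Values in every library are given for the called members of lowest p whose groups do not overlap, up to 3 in each direction, complex and sex, for up to 2 per complex with the smallest p of the difference, for the isoform pairs, and for Atp5g1 to Atp5g3. Cox5b, Cox4i1 and Uqcr10 are also given where their calls are discussed, and any other gene named outside this rule was chosen after its values were seen. Of other lists, up to 3 called genes with the smallest p are named. Alternatives were other filters, scalings, moderation, library weights, single-sex fits, a replicate block, leaving out libraries and exchanging the female labels.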

Additional observations from a re-analysis of the deposited data

Results flagged for a closer look

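By limma's test of the difference, the change in males and that in females were unequal for 32 of the 46 members tested (adjusted p under 0.05), and for Nr3c1. Values are the male change minus the female change on the log2 scale, as deposited. In complex II they were -0.35 for Sdha, -0.20 for Sdhb, -0.21 for Sdhc and -0.15 for Sdhd. In complex III they were -0.18 for Cyc1, -0.10 for Uqcr10, -0.28 for Uqcrc1, -0.33 for Uqcrc2, -0.17 for Uqcrfs1 and -0.17 for Uqcrh. In complex IV they were -0.17 for Cox4i1, -0.23 for Cox4i2, -0.32 for Cox5a, -0.16 for Cox6a1, -0.26 for Cox6a2 and -0.0745 for Cox6b1. They were also -0.20 for Cox6c, -0.25 for Cox7a1, -0.23 for Cox7a2, -0.17 for Cox7a2l, -0.13 for Cox7b and -0.18 for Cox8b. In complex V they were -0.28 for Atp5a1, -0.26 for Atp5b, -0.22 for Atp5c1, -0.22 for Atp5e, -0.30 for Atp5f1 and -0.17 for Atp5g3. They were also -0.0905 for Atp5j, -0.12 for Atp5j2, -0.21 for Atp5k and -0.0916 for Atp5o. The value for Nr3c1, whose female change went against the labels, was -0.70. All of these values rest on the female labels; with those exchanged, 20 members had a lower and 3 a higher change in males, and the value of Sdha, for example, came to 0.0041 and that of Cox7a1 to -0.34. After quantile normalization the values of Atp5a1 (0.14), Cox6b1 (0.0723), Atp5o (0.0534), Uqcrh (0.0135) and Cyc1 (9e-04) turned, and that of Atp5b came to 0. After centring on highly expressed genes those of Cox6b1 (0.0559), Atp5j (0.0399), Atp5o (0.0389), Uqcr10 (0.0352), Atp5j2 (0.0113) and Cox7b (0.0017) turned. Of the 46 members, 19 were still called lower after quantile normalization and 14 after this centring.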

How the results depend on the processing

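Of the values of named genes, 1739 kept their side of the threshold. These include values that changed direction but were called neither before nor after. Another 79 lost and 23 gained a call in the same direction. A further 17 reversed, which here means a change of direction with a call before or after. The reversals listed below are those of named genes in this sense. Quantile normalization gave 19 members lower and 1 higher for the difference of the changes, 5 higher and 12 lower in females, 2 higher in males, 2 lower between cardioGRKO groups, and 9 lower and 13 higher between floxed groups, with medians of -0.02 in females and 0.01 between floxed groups. It reversed Atp5a1 (0.0546 in males, -0.0819 in females, 0.14 for the difference), Cox4i1 (0.0226 in males) and Cyc1 (-0.0788 in females, 9e-04 for the difference). Centring on highly expressed genes, chosen after the data were seen, gave 14 lower and 9 higher for the difference, 4 higher and 19 lower in females, 3 higher in males, 2 lower between cardioGRKO groups, and 9 lower and 21 higher between floxed groups, with medians of -0.0465 and 0.045. It reversed the difference of Atp5sl (0.12) and Uqcr10 (0.0352), and the female values of Cox4i1 (-0.0172), Cox4i2 (-0.0677), Cox6a2 (-0.0552), Cyc1 (-0.0712), Sdhb (-0.0676), Uqcr10 (-0.0248), Uqcrc1 (-0.0452), Uqcrc2 (-0.0351) and Uqcrfs1 (-0.0245), and Nr3c1 in females came to 0.0574 and lost its call. The cause was not tested. With the female labels exchanged, added after the data were seen, 20 members were lower and 3 higher for the difference, 3 higher and 13 lower in females (median -0.0345), 14 higher and 6 lower between cardioGRKO groups, and 2 higher between floxed groups. Females had 1 member lower with no filter or no trend, males 2 higher with robust moderation, and floxed groups 1 higher with library weights and 2 without the libraries labelled female floxed 1 and 2. Correlations of same-numbered libraries ran from -0.11 to 0.148, so the numbers were not taken as pairs; with a replicate block within sex 32 members were lower and 2 higher in males, 12 higher and 2 lower in females, and 32 lower and 0 higher for the difference. Leaving out single libraries gave 29 to 34 lower and 0 to 1 higher for the difference, 10 to 16 higher and 1 to 3 lower in females, 29 to 33 lower and 0 to 2 higher in males, 15 to 28 higher and 1 lower between cardioGRKO groups (15 without male cardioGRKO 3), and 20 to 26 lower and 0 to 1 higher between floxed groups. Nr3c1 ranged from -0.57 to -0.55 in males and 0.12 to 0.16 in females. Depth is unknown.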
